A study of Saccharomyces cerevisiae with 18 samples.

Results

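The distribution of mRNAs between many ribosomes and few ribosomes was measured in wild-type (WT) Saccharomyces cerevisiae by comparing the heavy polyribosome fraction of a sucrose gradient with its light fraction. Levels are in CPM, the reads of a gene divided by those of its library and brought to a common total. All genes with a mean of at least 5 CPM in the 2 WT total extracts were taken, which gave 5497 of the 7126 genes in the deposited table. The other 1629 genes held at most 0.166% of the reads of any WT library, and 260 of them had no read in the WT total extracts. Next to the filter, YER188W was left out at 4.95 CPM with log2 ratios of heavy over light of -1.06 and -0.50, and HPA2 was kept at 5.02 CPM with log2 ratios of -0.79 and -0.71.

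The WT strain is a haploid of the BY background that lacks HIS3, LEU2, LYS2 and URA3 and carries both chromosomal copies of RPL7 (uL30), RPL7A and RPL7B. It was harvested in exponential phase, from medium that the labels name both as complete and as synthetic minimal, with cycloheximide, which stops elongation, as the only drug named for the polysome extracts. The series holds 18 libraries from 2 cultures each of WT, R28P-30A and R28P-30B, with a total extract, a light fraction and a heavy fraction of each culture. R28P-30A and R28P-30B are meant to live on a plasmid with the cDNA of RPL7A or RPL7B behind the RPS28A promoter, and they enter here only for the spread between cultures and for values set beside those of WT. The light fraction pooled free subunits and monosomes (40S, 60S and 80S), the heavy fraction started at the tetrasome, and the di- and trisomes between them went into neither. The 4 WT light and heavy libraries held 20677312 to 28640852 reads.

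As the label requires, WT had at least 37212 reads of RPL7A and 4597 of RPL7B in each library, against 3 reads of URA3, 6 of LEU2 and 0 of LYS2 and HIS3 over 6 WT libraries. The libraries labelled R28P-30A went against their label: they held RPL7B at 176 to 515 CPM, next to 222 to 635 CPM in WT, and URA3 at no more than 0.173 CPM, next to 272 to 354 CPM in R28P-30B. Leaving them out gave 274 genes over 2-fold higher and 724 over 2-fold lower in the heavy fraction of WT, next to 266 and 707 with them.

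A ribosome that starts on an mRNA moves along the open reading frame (ORF) before the next can follow, so an ORF can hold more ribosomes when it is long, when initiation is frequent, or when elongation is slow. Sedimentation sorts complexes by size, which for mRNAs is read here as the ribosomes they carry. The ribosomes on an mRNA were not counted, and other complexes in the same fraction cannot be told apart. The ratio of heavy to light is called the translation index. A high index means that an mRNA took a larger share of the heavy library than of the light library, and it is not a measure of protein output. CPM sets each library to the same total, so an index of 1 (log2 of 0) is an equal share of both libraries, not an equal number of molecules in both fractions.

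The index differed widely between genes and little between cultures. Across genes the log2 ratio ran from -7.56 to 2.60, with a median of -0.20 and the middle 50% of genes between -0.80 and 0.37. Its SD over genes was 0.93, whereas the difference between the 2 cultures had an SD of 0.17 over genes. Both cultures gave the same sign for 5215 genes (94.87%).

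In the plot of both WT cultures, the genes far from 0 lie along the diagonal. Tested against 0 with limma (adjusted p under 0.05), 1836 genes were higher in the heavy fraction (33.4% of those tested), 2818 were lower (51.3%) and 843 were not called. With calls this common, the stricter test for a change over 2-fold is used for most of what follows: 266 genes were over 2-fold higher in the heavy fraction (4.84%) and 707 were over 2-fold lower (12.9%). Without culture 1, 174 genes were over 2-fold higher. Because 0 depends on the scaling, these counts shift when each culture is centred on its median gene, which moves all log2 ratios up by about 0.20 and gives 419 genes over 2-fold higher and 511 over 2-fold lower. Changes are therefore also read against the median of all genes.

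**Figure D1:**
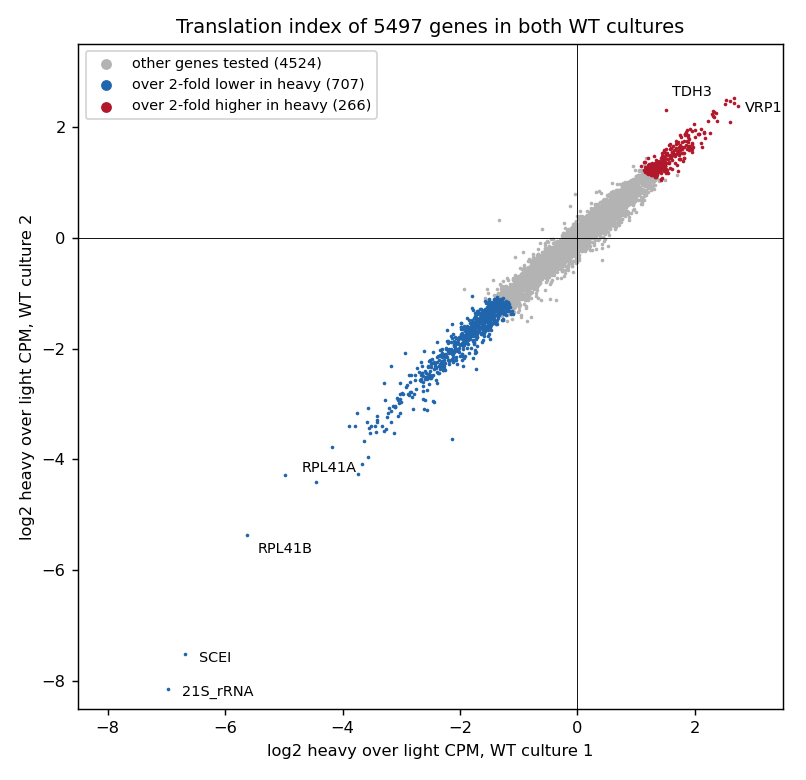
Log2 of heavy over light CPM for each of 5497 genes in WT culture 1 (x axis) and WT culture 2 (y axis), 1 point per gene. The 266 genes over 2-fold higher in the heavy fraction (red) and the 707 over 2-fold lower (blue) lie near the diagonal in both cultures, with RPL41A, RPL41B, SCEI and 21S_rRNA far down.

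The highest index belonged to VRP1, which encodes verprolin, a proline-rich protein of the actin cytoskeleton. VRP1 had 30.0 and 33.9 CPM in the light libraries and 191 and 196 CPM in the heavy libraries of cultures 1 and 2. The ratio of heavy to light was 6.06-fold (log2 2.60, SE 0.09, adjusted p = 1.03e-13). Codons for proline made up 22.4% of VRP1, next to a median of 4.18% over coding genes.

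DAN4, FIG2 and HPF1, also among the 12 highest, encode mannoproteins of the cell wall, whose long stretches of serine and threonine carry sugars. DAN4 had 4.34 and 5.42 CPM in the light libraries and 29.6 and 28.7 CPM in the heavy ones (log2 2.56, SE 0.13, adjusted p = 1.10e-11). For FIG2, which acts in mating, light libraries gave 15.1 and 16.6 CPM and both heavy libraries 92.3 CPM (log2 2.54). HPF1 went from 6.42 and 8.60 CPM to 39.2 and 37.2 CPM (log2 2.35). Serine and threonine codons made up 49.4% of DAN4, 44.5% of FIG2 and 42.4% of HPF1, next to a median of 13.8%.

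To show what such ORFs look like, the 90-base stretches of VRP1 and DAN4 that hold the most proline or the most serine and threonine codons are given here from the R64 genome, with those codons in capitals. The VRP1 stretch covers codons 304 to 333 (chrXII:804108-804197, minus strand), 15 of them for proline, a number that 5 of 5377 coding genes (0.093%) reach in any stretch of that length. The DAN4 stretch covers codons 123 to 152 (chrX:715285-715374, minus strand), 27 of them for serine or threonine, which 12 of 5377 genes (0.223%) reach.
VRP1: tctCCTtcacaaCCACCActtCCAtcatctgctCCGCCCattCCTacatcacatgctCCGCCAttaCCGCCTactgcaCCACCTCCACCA
DAN4: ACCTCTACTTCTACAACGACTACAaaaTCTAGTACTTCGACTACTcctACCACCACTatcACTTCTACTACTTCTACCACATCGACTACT
These compositions were looked at after the genes were known to be extreme. Across all 5377 coding genes the rank correlation of the log2 ratio with the share of proline codons was 0.04, and with that of serine and threonine codons -0.01.

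Enzymes of carbon metabolism were another part of the top. TDH3, the main isozyme of glyceraldehyde-3-phosphate dehydrogenase in glycolysis, had 4721 and 5129 CPM in the light libraries and 29928 and 27704 CPM in the heavy ones (5.85-fold, log2 2.55, SE 0.08). LSC2, a subunit of succinyl-CoA ligase in the tricarboxylic acid cycle, rose from 75.4 and 80.5 CPM to 432 and 430 CPM (5.53-fold). PDB1 and LAT1, subunits of the mitochondrial pyruvate dehydrogenase complex, had log2 ratios of 2.29 and 2.26. The remaining genes of the 12 highest were PST2, a flavodoxin-like protein (log2 2.51), the stress-induced DDR48 (2.31), TPM1, the main tropomyosin of actin cables (2.29), and GSP2, a Ran GTPase of nuclear transport (2.26). All 12 passed the 2-fold test, but they were picked for the highest ratios among called genes, so this is no result about them.

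At the other end, 10 of the 12 lowest named genes (protein-coding, at least 20 CPM in the total extracts) had ORFs of less than 300 bases or encoded a histone. RPL41B and RPL41A, which encode eL41, the smallest protein of the ribosome, were lowest. RPL41B had 1529 and 1548 CPM in the light libraries and 30.7 and 37.5 CPM in the heavy ones, 45.2-fold less in the heavy fraction (log2 -5.50, SE 0.13, adjusted p = 2.97e-15). RPL41A had 2802 and 2648 CPM against 127 and 124 CPM, 21.6-fold less (log2 -4.44, SE 0.08). Other ribosomal proteins here were RPS30B (log2 -3.53), RPL39 (-3.46) and RPS29A (-3.42).

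Short ORFs outside the ribosome followed. COX14, an assembly factor of cytochrome c oxidase, had 141 and 128 CPM in the light libraries and 11.2 and 9.95 CPM in the heavy ones (log2 -3.66). TOM5, a small subunit of the mitochondrial outer membrane translocase, was at -3.45, and COX17, a copper chaperone, at -3.39. DAD4, a subunit of the kinetochore's DASH complex, was at -3.36. The exceptions to short length were POP6 (477 bases, a subunit of RNase MRP and RNase P, log2 -3.60), HHT1 (411 bases, histone H3, -3.35) and RRT5 (870 bases, -3.35).

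**Figure D2:**
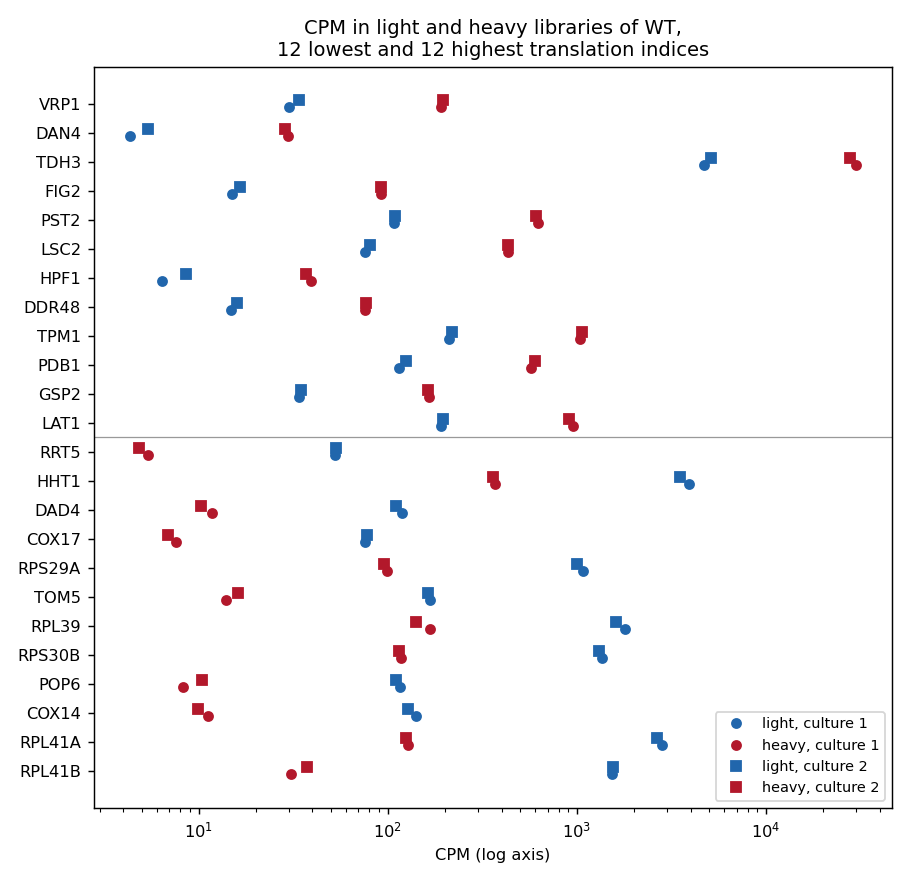
CPM on a log axis in the light (blue) and heavy (red) libraries of WT culture 1 (circles) and culture 2 (squares) for the genes with the 12 lowest and 12 highest indices, ordered from the lowest (bottom) to the highest (top). The genes were picked for extreme ratios, so light and heavy points lie apart by choice, and the cultures lie close together.

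ORFs of like, very short length differed in index. To compare them, the whole coding sequences of 6 are given (R64 genome, start and stop codons in capitals). RPL41A (chrIV:130407-130484, minus strand) and RPL41B (chrIV:221724-221801, minus strand) have 25 codons before the stop and differ at 1 base. OST4 (chrIV:38487-38597, plus strand), a small membrane subunit of the oligosaccharyltransferase of the endoplasmic reticulum (ER), has 36 codons, and the spliced RPL39 (gene at chrX:75933-76474, plus strand) has 51. PMP1 (chrIII:162945-163067, minus strand) and PMP2 (chrV:122798-122929, minus strand), small membrane proteins bound to the plasma membrane proton pump Pma1, have 40 and 43 codons.
RPL41A: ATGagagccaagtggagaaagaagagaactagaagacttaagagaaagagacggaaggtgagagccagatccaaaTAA
RPL41B: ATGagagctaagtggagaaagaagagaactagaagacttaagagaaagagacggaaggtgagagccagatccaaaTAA
OST4: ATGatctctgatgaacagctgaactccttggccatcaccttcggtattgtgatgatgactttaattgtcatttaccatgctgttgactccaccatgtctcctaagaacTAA
RPL39: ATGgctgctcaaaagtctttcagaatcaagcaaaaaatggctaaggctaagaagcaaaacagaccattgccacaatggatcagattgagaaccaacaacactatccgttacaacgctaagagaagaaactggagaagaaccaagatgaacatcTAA
PMP1: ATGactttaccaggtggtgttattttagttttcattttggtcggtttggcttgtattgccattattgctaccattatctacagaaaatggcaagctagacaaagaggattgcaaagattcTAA
PMP2: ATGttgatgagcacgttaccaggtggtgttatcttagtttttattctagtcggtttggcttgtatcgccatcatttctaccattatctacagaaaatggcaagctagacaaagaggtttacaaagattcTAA
PMP1 had 91.7 and 112 CPM in the light libraries and 287 and 321 CPM in the heavy ones (2.99-fold higher, log2 1.58, SE 0.08, adjusted p = 7.01e-12). OST4, which is shorter by 4 codons, had 141 and 121 CPM against 13.1 and 13.0 CPM (9.97-fold lower, log2 -3.32). PMP2 went the way of PMP1 (115 and 133 CPM against 212 and 248 CPM, log2 0.89), and RPL39 the way of OST4 (1806 and 1601 CPM against 168 and 142 CPM). Both membrane proteins of the pump thus lay on the other side of 0 from the other 4 ORFs in both cultures. Whether tetrasomes or larger polyribosomes form on ORFs this short was not tested. YCR024C-B, an ORF of 267 bases annotated next to PMP1 (chrIII:162599-162865), had log2 1.21, and whether its reads belong to the PMP1 transcript cannot be told apart here. Pma1 itself, from the PMA1 ORF of 2757 bases, had log2 0.41, with 0.23 and not called without culture 1.

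The index rose with coding length across all genes. Among the 176 genes under 300 bases the median log2 ratio was -1.75, and 119 of them (67.6%) were over 2-fold lower in the heavy fraction. The median was -0.85 over 700 genes of 300 to under 600 bases, -0.33 over 1659 genes of 600 to under 1200 bases and -0.08 over 1979 genes of 1200 to under 2400 bases. It was 0.19 over 759 genes of 2400 to under 4800 bases and 0.76 over 104 genes of 4800 bases and more, where 19 (18.3%) were over 2-fold higher and 0 over 2-fold lower. The rank correlation of log2 ratio and coding length was 0.40 over 5377 genes, with 0.42 in culture 1 and 0.38 in culture 2. Genes share libraries and are not independent replicates, so these correlations carry no test.

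**Figure D3:**
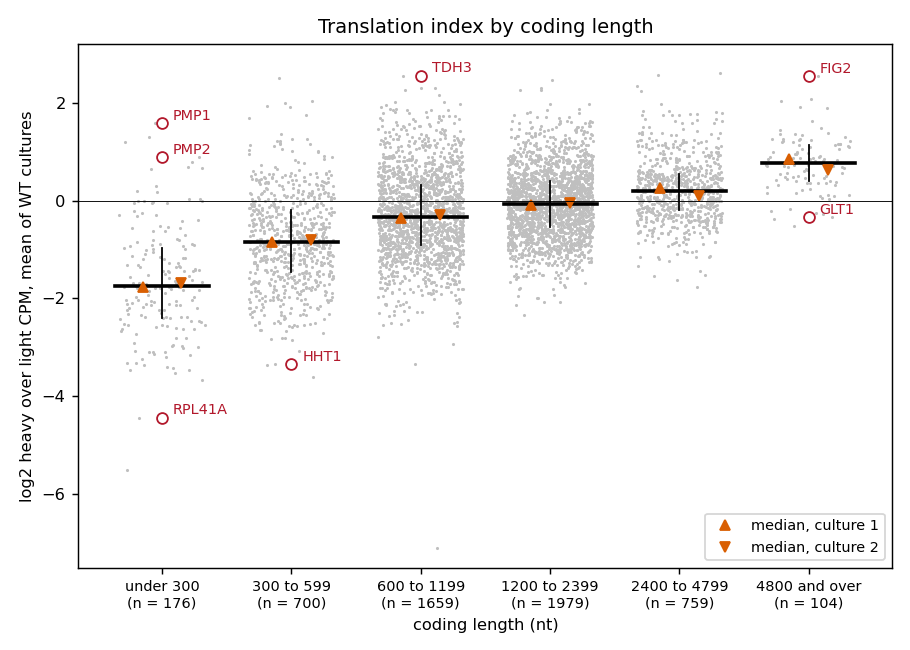
Log2 of heavy over light CPM (mean of the WT cultures) by coding length in bases, 1 grey point per gene, with the median (thick bar), the middle 50% of genes (thin bar) and the median of each culture (triangles). Medians climb from -1.75 under 300 bases to 0.76 at 4800 bases and over, while single genes such as PMP1 and GLT1 (red circles) lie far from the median of their class.

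Among the length classes, the medians of the cultures were farthest apart for the longest ORFs, with of 0.86 in culture 1 and 0.63 in culture 2 at 4800 bases and more. Within that class 7 of 104 genes lay below 0. They included 3 ORFs of Ty elements, which exist in many near-identical copies, and UTP10 (log2 -0.51) and URB1 (-0.27), which act in ribosome assembly. RPO21, the largest subunit of RNA polymerase II, had -0.18 and was not called.

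GLT1, the glutamate synthase that the study follows as a long ORF (6438 bases), was the other gene below 0, with a wide spread. It had 248 and 369 CPM in the light libraries and 237 and 239 CPM in the heavy ones. The log2 ratios were -0.07 and -0.62, and the call (log2 -0.34, adjusted p = 0.00859) was lost without culture 2, with centring (-0.15), with edgeR and TMM (-0.17) and with DESeq2 (-0.15). EGD1, a subunit of the nascent polypeptide-associated complex and the short ORF followed (474 bases), had 756 and 723 CPM against 678 and 615 CPM (log2 -0.20), which is the median of all genes and turned to 0.003 with centring. OSH6, an oxysterol-binding protein of middle length (1347 bases), had 61.7 and 60.0 CPM against 82.7 and 84.3 CPM (log2 0.46).

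Of the 176 shortest genes, 13 lay above 0. Besides the pump proteins they included INH1 and STF1, which encode inhibitors of the mitochondrial ATP synthase (log2 0.68 and 0.29), and LSM3, an RNA-binding protein of splicing and decay (0.67).

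Over all genes, other features had lower rank correlations with the log2 ratio than length had. The level per kilobase in total extracts had a rank correlation of 0.08 with the log2 ratio over all coding genes, but short genes have high levels per length (rank correlation of length and level -0.47). Within 600 to under 1200 bases the correlation with level was 0.42, next to 0.11 with length, and within 1200 to under 2400 bases 0.36. In the former class the median log2 ratio went from -0.72 over the 231 genes with the lowest levels (the bottom 25% of all genes) to 0.23 over the 503 with the highest (the top 25%). The correlation with level was weaker or absent in the other classes. It was -0.07 under 300 bases, 0.22 at 300 to under 600, 0.17 at 2400 to under 4800 and -0.05 at 4800 and more. Codon usage, scored by its likeness to the ribosomal protein genes, correlated at 0.21 over all coding genes, at 0.33 within 600 to under 1200 bases and at 0.21 within 1200 to under 2400 bases. For codon usage the other classes gave -0.11 under 300 bases, 0.18 at 300 to under 600, 0.08 at 2400 to under 4800 and -0.14 at 4800 and more.

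The base 3 positions before the start codon, a part of the start context, went with small differences only. The median log2 ratio was -0.17 for 3314 genes with A, -0.17 for 1036 with G (both rounded), -0.24 for 562 with T and -0.27 for 465 with C, while the middle 50% of the genes with A ran from -0.77 to 0.40. The 272 genes with an intron in the coding sequence had a median of -0.74, next to -0.16 for 5105 without. Ribosomal protein genes account for 89 of the 272 (median -0.97), next to -0.53 for the 44 ribosomal protein genes without an intron. The other 183 genes with an intron had a median of -0.56. These groups were not matched for coding length.

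Lists of genes by function showed which cellular tasks sat at either end, and counts over 2-fold are read against 4.84% higher and 12.9% lower over all genes. Enzymes of glycolysis and alcoholic fermentation, the main route of energy in glucose-grown yeast, had the highest median of the 28 lists plotted (1.0 over 20 genes): 8 were over 2-fold higher and 0 over 2-fold lower. After TDH3 the highest were HXK1 (hexokinase, 1.86), GPM1 (phosphoglycerate mutase, 1.62), ENO2 (enolase, 1.59) and FBA1 (aldolase, 1.53). The steps of phosphofructokinase stood apart, with PFK2 at -0.42 and PFK1 not called (0.14 and -0.14 in the cultures), and the lowest was the minor pyruvate decarboxylase PDC5 (-0.56). Together the 20 genes took 3.90% and 3.97% of the reads in the light libraries, 10.9% and 10.3% in the heavy libraries and 7.19% and 6.82% in the total extracts.

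**Figure D4:**
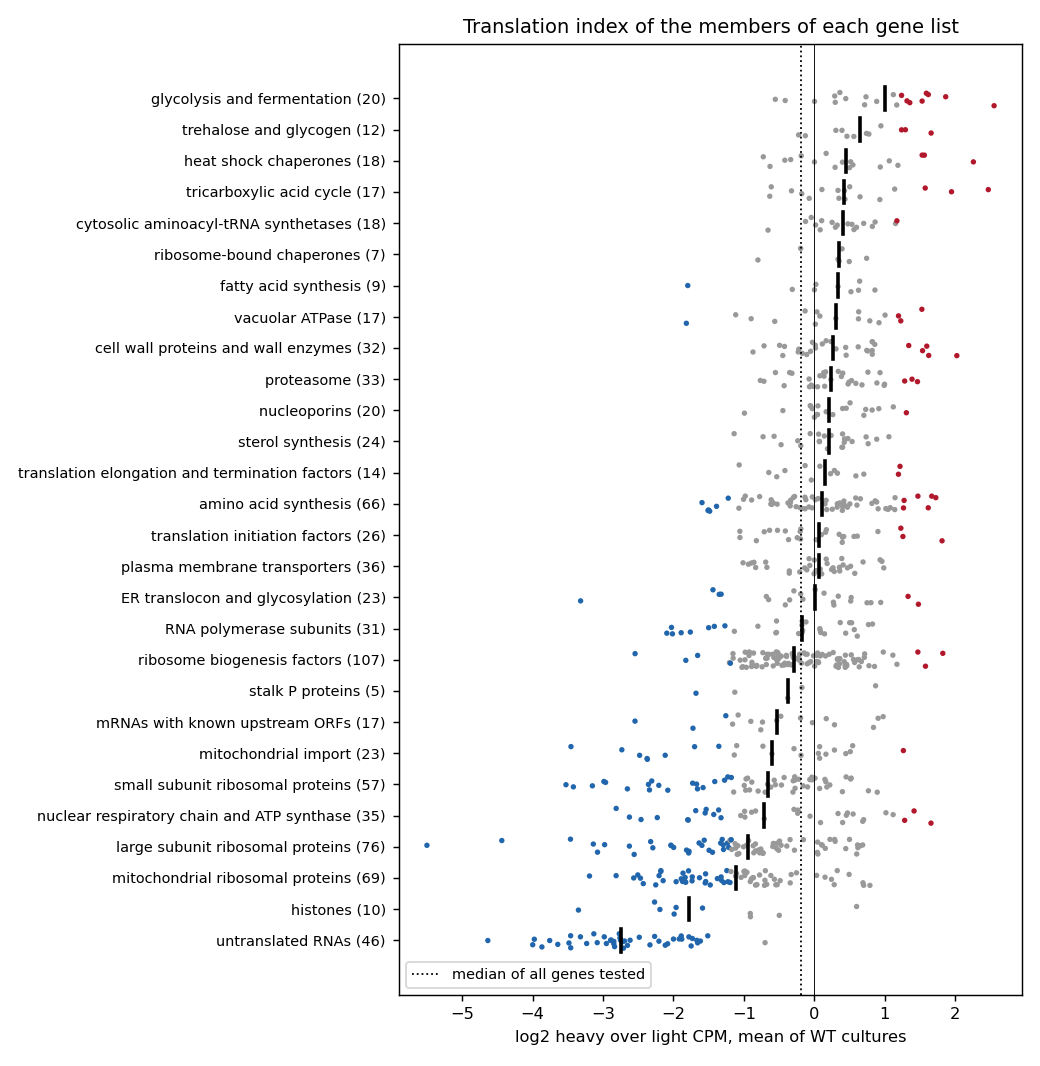
Log2 of heavy over light CPM (mean of the WT cultures) for the members of 28 gene lists, 1 point per gene, with the median of each list (black bar) and the number of members tested. Red and blue points are genes over 2-fold higher or lower in the heavy fraction, and the dotted line is the median of all genes (-0.20).

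Other carbon metabolism lay above the median too. Enzymes of trehalose and glycogen, the reserve carbohydrates, had a median of 0.65 over 12 genes, with the glycogen phosphorylase GPH1 at 1.66 and the synthases GSY1 and GSY2 at 1.29 and 1.24. TPS2 was lowest (-0.22), a call lost without culture 2 (-0.03), with centring (-0.03), with edgeR and TMM (-0.05) and with DESeq2 (-0.03). The tricarboxylic acid cycle had a median of 0.43 over 17 genes, led by LSC2 (2.47), LSC1 (1.94) and the malate dehydrogenase MDH1 (1.57), while the citrate synthase CIT3 was at -0.63.

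Cytosolic ribosomal proteins lay below the median of all genes. The median was -0.95 over 76 genes of the large subunit, of which 28 were over 2-fold lower and 0 over 2-fold higher, and -0.67 over 57 genes of the small subunit, of which 19 were over 2-fold lower and 0 over 2-fold higher. Together they took 22.4% and 21.5% of the reads in the light libraries and 15.4% and 14.6% in the heavy ones. Their ORFs were short, with a median of 435 bases. Against the median of genes of the same length class, the 133 genes had a median difference of -0.02, and 65 lay above. Within the lists the order followed length in part, from RPL41B to RPL4B (1089 bases, log2 0.68) and from RPS30B to RPS2 (765 bases, 0.89). Of the stalk proteins, RPP0 was at 0.87 and the shorter RPP2A at -1.68.

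Mitochondrial ribosomal proteins were low beyond their length. The median was -1.12 over 69 genes, with 33 over 2-fold lower and 0 over 2-fold higher, and 14 of 69 lay above the median of their length class (median difference -0.70). MRPL39 was the lowest (213 bases, log2 -3.19) and MRPS18 the highest (654 bases, 0.79). Nuclear genes of the respiratory chain and ATP synthase had a median of -0.71 over 35 genes, but +0.39 against genes of like length. Small subunits were at the bottom, such as ATP15 (189 bases, -2.81) and QCR9 (201 bases, -2.63). The highest were CYT1 (930 bases, 1.65) and ATP1 (1638 bases, 1.41), and the shorter QCR6 (444 bases) was at 1.12. The mitochondrial import list of 23 ran from TOM5 (-3.45) to TIM50, a receptor of the inner membrane translocase (0.54). It also holds TOM1 (9807 bases, 1.26), known as a ubiquitin ligase, and TIM11 (-0.29), known as a subunit of the ATP synthase, neither of them an import protein.

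Histones were low as a group. Of 10 genes, 6 were over 2-fold lower, the median was -1.78, and 2 lay above the median of their length class (median difference -0.93). HHT1 had 3907 and 3497 CPM in the light libraries and 367 and 359 CPM in the heavy ones. HHO1, the linker histone, was the only 1 of the 10 above 0 (0.60). The 10 genes took 2.04% and 1.94% of the reads in the light libraries and 0.532% and 0.586% in the heavy ones.

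Within the machinery of translation, factors had higher medians than the ribosomal proteins of either subunit, but their ORFs were longer. Against genes of like length, synthetases had a median of 0.37, initiation factors 0.17, and elongation and termination factors 0.38. By the same measure, ribosomal proteins had 0.18 for the small subunit and -0.14 for the large subunit. Of 18 cytosolic aminoacyl-tRNA synthetases, which load tRNAs, 12 were higher and 1 was lower (33.4% and 51.3% of all genes), with a median of 0.40 and the range from ILS1 (-0.66) to THS1 (1.17). Initiation factors had a median of 0.06 over 26 genes, which turned to -0.06 with CPM scaled without ribosomal protein genes. TIF3 (eIF4B) had 191 and 220 CPM in the light libraries and 702 and 739 CPM in the heavy ones (log2 1.81), with TIF1 (eIF4A) at 1.26 and HCR1 (eIF3j) at 1.23. The lowest was the eIF3 subunit NIP1 at -1.06, and PRT1, another eIF3 subunit, was at -0.71. The median of 14 elongation and termination factors was 0.15, from ANB1 (-1.07), the form of eIF5A made without oxygen, to TEF2 (1.21), which differs from TEF1 (0.28) at 2 coding bases, so that the split of reads between these copies is uncertain. Ribosome-bound chaperones ran from BTT1 (-0.80) to SSZ1 (0.74), with a median of 0.35 over 7 genes.

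Ribosome biogenesis factors were close to all genes in their median (-0.30 over 107) but wide in range. UTP14, a helicase cofactor of the small subunit processome, was at 1.82, NOP4 at 1.58 and the methyltransferase NOP1 at 1.47. NOP10, a small protein of the pseudouridylation complexes (177 bases), was at -2.54 and UTP6 (1323 bases) at -1.66. Subunits of the RNA polymerases had a median of -0.18, which turned to 0.02 with centring and to 0.10 against genes of like length, and all 8 that were over 2-fold lower had ORFs of 486 bases or less. RPC10, shared by the nuclear RNA polymerases, was lowest (-2.09) and RPB4 highest (0.82).

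Chaperones and the proteasome lay above the median. SSA2, a cytosolic Hsp70, had 262 and 283 CPM in the light libraries and 1313 and 1286 CPM in the heavy ones (log2 2.26), followed by the Hsp40 YDJ1 (1.56) and SSA1 (1.53). Among 18 heat shock chaperones 3 were over 2-fold higher, 0 over 2-fold lower, and HSP10 was lowest (-0.73). Of 33 proteasome subunits 19 were higher and 6 lower, next to 33.4% and 51.3% of all genes (median 0.23), from RPN9 (-0.77) to the catalytic subunit PRE2 (1.46). The vacuolar ATPase had a median of 0.30 over 17 genes, from the 222-base VMA9 (-1.82) to VMA4 (1.52), and +0.95 against genes of like length.

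Proteins of membranes and the cell surface spread to both sides. Cell wall proteins and wall enzymes had a median of 0.27 over 32 genes. In this list, which does not hold DAN4, FIG2 and HPF1, the wall glycoprotein CCW14 was highest (2.02), before the wall proteins ECM33 (1.62) and SCW4 (1.59), and PIR3 lowest (-0.87). Of 36 plasma membrane transporters 0 passed the test for a change over 2-fold in either direction, next to 16 higher and 10 lower by the plain test (median 0.06, turned to -0.07 with CPM scaled without ribosomal protein genes), from the glucose carrier HXT1 (-1.01) to the drug pump PDR5 (0.98). In the ER translocon and glycosylation list (median 0.01, with -0.11 under the same scaling and -0.05 without culture 2) SEC61, the channel, was at 1.48 and PMT4 at 1.33, while small partners such as SBH1 (-1.32) and OST5 (-1.44) were low.

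Lipid synthesis showed 1 gene far from the rest. OLE1, the only fatty acid desaturase of yeast, had 1545 and 1460 CPM in the light libraries and 439 and 425 CPM in the heavy ones (log2 -1.80), although its ORF has 1533 bases. The other 8 genes of fatty acid synthesis lay between FAA4 (-0.31) and ACC1 (0.86). Sterol enzymes had a median of 0.21 over 24 genes, from ERG5 (-1.14) to ERG24 (1.06). Nucleoporins had a median of 0.21 over 20 genes, from NUP42 (-0.99) to NUP85 (1.30). Amino acid synthesis had a median of 0.10 over 66 genes, which turned to -0.02 with CPM scaled without ribosomal protein genes, from ARO7 (-1.60) to PRO3 (1.72).

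Genes known for upstream ORFs, short ORFs in the leader that can hold ribosomes back from the main ORF, were low as a list but not throughout. The median was -0.54 over 17 genes, and -0.40 against genes of like length. CBS1, a translational activator of mitochondrial COB mRNA, was lowest (47.5 and 46.5 CPM in the light libraries, 7.84 and 8.10 CPM in the heavy ones, log2 -2.55). GCN4, the regulator of amino acid synthesis that is the textbook case, had 2352 and 2670 CPM against 770 and 748 CPM (log2 -1.72), and HAP4 was at -1.26. CPA1, whose leader peptide senses arginine, was at -0.48. YAP1 and SCH9 lay above 0 (0.17 and 0.97), and CLN3 was not called (-0.03, and 0.17 with centring). The call of YAP1 was lost with CPM scaled without ribosomal protein genes (0.04), and its log2 ratio was 0.10 without culture 2. HAC1, whose mRNA keeps an intron that blocks translation until the unfolded protein response removes it, was at -1.22.

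RNAs that are not translated served as a check of the fractions. All 46 tested, mostly small nucleolar RNAs, were lower in the heavy fraction, 45 of them over 2-fold, with a median of -2.74. snR24 was lowest (21.4 and 25.7 CPM against 0.580 and 1.22 CPM) and snR83 highest (7.25 and 7.74 CPM against 3.43 and 6.08 CPM, log2 -0.70, not called without culture 1). The libraries were enriched for poly(A), which most of these RNAs lack in their mature form. Several protein-coding mRNAs, RPL41A and RPL41B among them, lay below this median.

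From the mitochondrial genome 1 of 28 listed genes passed the filter, SCEI, which lies within the 21S rRNA gene. Its reads numbered 702 and 919 in the light libraries and 3 and 3 in the heavy ones, a ratio of light to heavy CPM of 174 (95% interval 59.2 to 844) and 358 (122 to 1737). The 21S_rRNA itself had 3242 and 4316 reads against 17 and 15, which are ratios of 142 (88.2 to 243) and 336 (203 to 601). The intervals are exact binomial and cover counting error only.

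Paralogs, only some of them near-identical in their ORFs, often differed in index. Shared coding bases went down to 84.3% for RPS27A and RPS27B, and the untranslated ends of paralogs were not compared. Of 57 pairs of ribosomal protein genes, 27 were more than 0.5 apart on the log2 scale, in the same direction in both cultures, and the median distance was 0.49. Of the 21 pairs that encode the same protein, 8 were that far apart. Distances between other pairs of genes were not computed, and the SD of the log2 ratio over all genes was 0.93. These counts therefore do not set paralogs apart from other pairs of genes. RPL1A and RPL1B, which differ at 4 of 654 coding bases, had 0.60 and -0.35. The widest pairs were RPS9A and RPS9B (-2.21 and -0.04) and RPL8A and RPL8B (-1.29 and 0.61), whose proteins are not identical. All valid positions of a read were kept in mapping, but how such reads were counted is not given, so identical stretches may count for both copies. In R28P-30B, RPL7A had 3.67 to 8.90 CPM, next to 3255 to 6616 CPM for RPL7B.

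RPL7A and RPL7B, the pair the study is about, were 1.56 apart, with 1.59 in culture 1 and 1.52 in culture 2. RPL7A had 2182.1 and 2000.0 CPM in the light libraries and 2310.2 and 2199.7 CPM in the heavy ones (log2 0.11, not called). RPL7B had 635 and 609 CPM against 222 and 234 CPM (log2 -1.45, SE 0.07, adjusted p = 2.90e-12). RPL7B was over 2-fold lower by the stricter test, next to 12.9% of all genes. RPS28A, whose promoter drives the plasmids of the other strains, and RPS28B had log2 ratios of -3.15 and -1.73.

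Pairs outside the ribosome differed too. HHT1 and HHT2 encode the same histone H3 and had -3.35 and -2.19, and HHF1 and HHF2, the same histone H4, had -0.91 and -2.27. GSP2 (2.26) was 2.05 above its abundant partner GSP1 (0.21), and TPM1 (2.29) was 2.41 above TPM2 (-0.11). Among the glyceraldehyde-3-phosphate dehydrogenases TDH3 (2.55) was above TDH1 (1.35) and TDH2 (0.71).

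**Figure D5:**
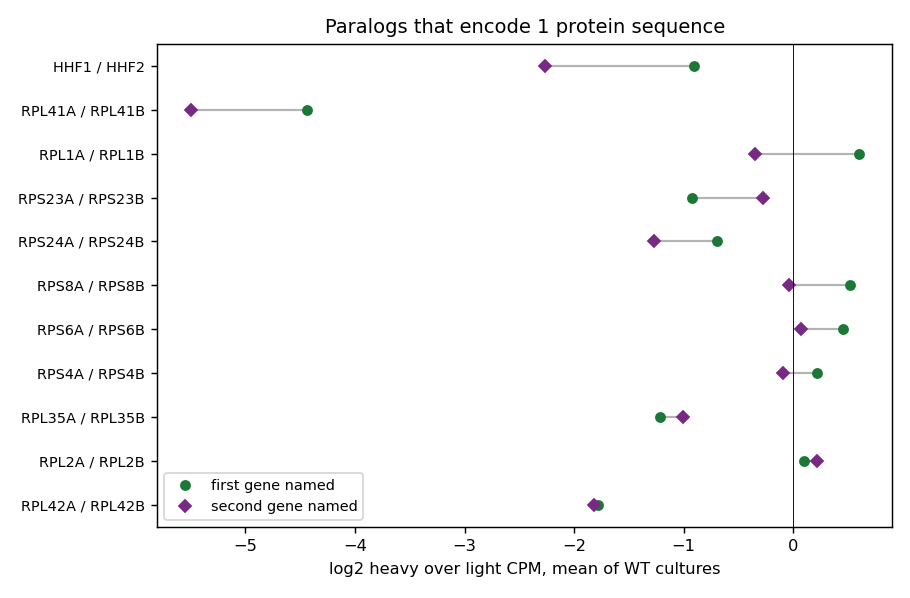
Log2 of heavy over light CPM (mean of the WT cultures) for 10 pairs of ribosomal protein genes and 1 pair of histone genes whose ORFs encode the same protein and share at least 96% of their bases (the near-identical TEF1 and TEF2, and EFT1 and EFT2, are left out), with the gene named first as a circle and the other as a diamond. Pairs are ordered by distance, from RPL42A and RPL42B at the bottom to HHF1 and HHF2 at the top.

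The genes far from 0 in WT lay on the same side in the other strains. All 266 genes over 2-fold higher in WT were above 0 in each of the 4 cultures of the other strains, and 705 of 707 over 2-fold lower were below 0 in all 4. Among all calls it was 1416 of 1836 higher and 2579 of 2818 lower. Genes of 4800 bases and more had medians of -0.02 (R28P-30A as labelled) and 0.94 (R28P-30B), next to 0.76 in WT. Those under 300 bases had medians of -1.65 and -2.0, next to -1.75. The log2 ratio differed from that of WT (adjusted p under 0.05) for 31.9% of genes in the case of R28P-30A as labelled, and for 23.3% in the case of R28P-30B. The same 4 WT libraries enter each of these differences.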

How the data were processed

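RNA-seq of 18 libraries was re-analysed from CPM that the authors deposited for 7126 genes. The authors selected poly(A) RNA for strand-marked libraries, mapped them to R64 with STAR, kept all valid positions of a read, and counted with featureCounts (strand setting not given in the sources used here, so antisense overlaps cannot be told apart). A deposited TPM table was not used, and 0 columns of the CPM table were left out. Divided by the value of 1 read, 100% of CPM values lay within 0.05 of a whole number, so reads were recovered (17373839 to 31525927 per library).

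Genes with a mean of at least 5 CPM in the WT total extracts were tested. limma (version 3.58.1, R 4.3.3) was fitted to log2((heavy CPM + 0.1)/(light CPM + 0.1)) of 6 cultures of 3 strains, with a mean per strain and a trend on level. The WT mean was tested against 0 and, with treat, against log2 1. P-values were adjusted by the Benjamini-Hochberg method over 5497 genes. A log2 ratio with a pseudocount understates the change of low genes. Light and heavy libraries were paired by culture: the labels give both the same source name, and differences between cultures 1 and 2 correlated at 0.17 between the fractions across genes. The study describes its sequenced samples as biologically independent. Replicates differed beyond sampling noise (chi-square per degree of freedom 10.2 to 16.3).

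Coding lengths, introns and sequences came from the RefSeq annotation of R64 (5377 of 5497 genes, 100% multiples of 3). Named genes were the 12 highest and 12 lowest ratios among called coding genes with a symbol, at least 20 CPM and the same sign in both cultures, the highest and lowest of each list, and genes followed by the study or known for short or regulated ORFs. Further list members and paralogs are named where a count or group is described, and were chosen after their values were seen. A value of 1 pair of paralogs is not reported here. Members, lists and tests were chosen with earlier results of these data known. Alternatives were other pseudocounts, filters, scalings and fits, edgeR 4.0.16 and DESeq2 1.42.0 on recovered reads, and leaving out each WT culture. The tests were tested on simulated data. Tables and plots were made in Python 3.11.15 (scipy 1.17.1, numpy 2.4.6, pandas 2.3.3, matplotlib 3.10.9).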

Additional observations from a re-analysis of the deposited data

Results flagged for a closer look

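For 39 genes at the extremes or followed in the text, the log2 ratio of heavy over light was compared between WT and each other strain in the same limma fit (adjusted p over all genes). Differences that passed are given here as strain minus WT, and since they pass for 31.9% and 23.3% of all genes, they do not set these genes apart. In the libraries labelled R28P-30A, which go against their label, ratios were lower than in WT for VRP1 (-0.79), DDR48 (-0.74), HPF1 (-0.69), DAN4 (-0.67), PMP2 (-0.65), GLT1 (-0.64), PMP1 (-0.60), FIG2 (-0.58), RRT5 (-0.54) and CLN3 (-0.50). They were higher for RPS28A (0.96), RPS30B (0.76), RPL41B (0.72), RPL41A (0.54), RPS29A (0.52), RPS28B (0.42), PST2 (0.34) and TOM5 (0.32).

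In R28P-30B, ratios were lower than in WT for DDR48 (-0.64), RPL41B (-0.63), DAD4 (-0.59), RPL7A (-0.54), RPL41A (-0.40) and TPM1 (-0.33). They were higher for RRT5 (1.31), RPL7B (1.22), PMA1 (1.08), CLN3 (0.66), HAC1 (0.57) and PMP1 (0.38). RPL7A had 3.67 to 8.90 CPM in R28P-30B, and RPL7B comes there from a plasmid. RPL41A, RPL41B, PMP1, CLN3 and RRT5 lay on opposite sides of WT in the other strains.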

How the results depend on the processing

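Of 90 named genes, 82 kept direction and call in all alternatives, and 20 of 29 lists kept the direction of their median. Counts of genes over 2-fold higher and lower (266 and 707) became 419 and 511 with the median gene of each culture set to 0, 447 and 580 with edgeR (TMM), 377 and 467 with DESeq2, and 184 and 824 with CPM without ribosomal protein genes. The share of higher among all calls moved from 39.45% to 50.11% with centring. Leaving out a WT replicate gave 174 to 239 over 2-fold higher, 547 to 643 over 2-fold lower, 1638 to 1666 higher and 2580 to 2652 lower. The no replicate block fit gave 1780 higher, 2772 lower, 234 over 2-fold higher and 672 over 2-fold lower, next to 1836, 2818, 266 and 707 with the pairing. Without the block the calls of GLT1 and TPS2 were lost, and no other named gene's call changed. edgeR without TMM gave 312 and 798 over 2-fold, and a limma fit to WT alone 261 and 697. With a filter of 1 CPM 269 and 826 passed, with 20 CPM 258 and 557, and with no filter beyond a read in each library 267 and 840. EGD1 turned to 0.003 with centring, and CLN3 to 0.17 with centring, 0.15 with edgeR (TMM), 0.17 with DESeq2 and 0.0065 without replicate 2 (-0.0642 without replicate 1). RPL7A (0.11) was called with WT alone (0.11), centring (0.31), edgeR with TMM (0.29) and DESeq2 (0.31). List medians turned with CPM without ribosomal protein genes for initiation factors (-0.062), amino acid synthesis (-0.023), transporters (-0.065) and the ER translocon (-0.11, -0.048 without replicate 2 and 0.069 without replicate 1), and with centring for RNA polymerase (0.022). Against the median of their coding length class, an alternative chosen after seeing the data, medians turned for small subunit ribosomal proteins (0.18), stalk proteins (0.47), the respiratory chain (0.39), mitochondrial import (0.11) and RNA polymerase (0.10). The rank correlation with length stayed between 0.38 and 0.42. Depth limits the ratios of RNAs with few reads in the heavy libraries, such as SCEI. The cause of these shifts was not tested.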

Other observations

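A few gene groups picked after their values were seen are given here as values. All 5 genes of the pyruvate dehydrogenase complex, which feeds pyruvate into the tricarboxylic acid cycle, lay above 0. Over all genes, 2263 of 5497 did. Of the 5, 3 were over 2-fold higher in the heavy fraction, next to 4.84% of all genes. These were PDB1 (log2 2.29), LAT1 (2.26) and PDA1 (1.84), and PDA1 had 218 and 219 CPM in the light libraries and 814 and 758 CPM in the heavy ones. LPD1, which the complex shares with other dehydrogenases, was at 0.93, and PDX1 at 0.09 was not called.

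Of 11 partners of the chaperone Hsp90, 3 were over 2-fold higher, next to 4.84% of all genes. They were SBA1 (the p23 homologue, 156 and 172 CPM in the light libraries against 730 and 741 CPM in the heavy ones, log2 2.16), AHA1 (1.85) and STI1 (1.22). By the plain test 6 of the 11 were higher and 2 lower, next to 33.4% and 51.3% of all genes, and 3 were not called. TAH1 (336 bases) was lowest at -0.64, and all 11 lay above the median of their length class.

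Of 54 genes known for meiosis or spore formation, 35 passed the filter in these growing cells, and their median was -0.93. Among them 26 were lower in the heavy fraction and 3 were higher, next to 51.3% and 33.4% of all genes, and 11 were over 2-fold lower, next to 12.9%. The meiotic regulator NDT80 had 11.1 and 11.7 CPM in the light libraries and 2.56 and 3.0 CPM in the heavy ones (log2 -2.0, ORF of 1884 bases), and SSP1 and ADY4, which act in spore membrane formation, were at -2.33 and -2.13. IME1 (0.43) and SPS19 (1.18) lay above 0. Most of these genes had few reads, and whether those come from full-length mRNAs was not tested.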
